A study of Rattus norvegicus with 60 samples.

Results

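The cytosolic and mitochondrial chaperones and chaperonins were taken as a list of 41 genes, namely the Hsp70, Hsp90, Hsp110, Hsp60 and small heat shock proteins, their J-domain and nucleotide exchange partners, the co-chaperones, the TRiC/CCT chaperonin, prefoldin and the heat shock factor Hsf1. Each was looked up as a gene symbol in the annotation of the array (Affymetrix Rat Gene 1.0 ST), and the probe sets that carried this symbol alone were averaged per gene. Of the 41 genes, 38 were measured this way by 48 of the 27342 probe sets, among 14324 genes tested in all. Ahsa1 and Pfdn4 had no probe set of a single symbol in the annotation used, and the only probe set of Hspa1b also carried Hspa1a and Hspa1l, so that its values are given apart and belong to no single gene.

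RNA came from the 5 mm lesion segment of the spinal cord of 60 female Long Evans rats of 8 or 9 weeks, with 2 rats (duplicates) in each group at each time. Injured rats received a weight-drop contusion at the lower thoracic cord, and sham rats were not injured. S-EtOH were sham rats given 70% ethanol, S-MP sham rats given 30 mg/kg methylprednisolone (MP, a synthetic glucocorticoid) in 70% ethanol, SCI-EtOH injured rats given 70% ethanol, and SCI-MP injured rats given MP in 70% ethanol. All rats were anesthetized with Zoletil and xylazine, all received ethanol, and tissue was taken at 7 times after the medication (2, 4 and 6 h, then 8 and 12 h, then 24 and 48 h), while 0 h was sampled only in S-EtOH and SCI-EtOH. The comparisons are named as follows. A is SCI-EtOH minus S-EtOH, the injury difference without MP, and E is SCI-MP minus S-MP, the injury difference with MP. B is SCI-MP minus SCI-EtOH, the MP difference in injured cord, and D is S-MP minus S-EtOH, the MP difference in sham cord. A and E share no array, whereas A and B share SCI-EtOH. Each is a log2 difference, averaged over the 7 times from 2 to 48 h unless times are named, so that each side rests on 14 arrays.

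Chaperones keep other proteins from aggregating and help them fold. Hsp70 proteins bind short stretches of unfolded chains under the control of J-domain proteins such as Dnajb1 and Dnaja1 and of exchange factors such as Hsph1 and Bag3, and pass part of their clients through Stip1 to Hsp90. The TRiC/CCT chaperonin is a double ring of 8 kinds of subunit that folds actin and tubulin, which prefoldin delivers, and Hspd1 with its lid Hspe1 forms the matching chamber of mitochondria. When unfolded proteins accumulate, Hsf1 trimers bind heat shock elements, alternating GAA and TTC units, and raise the inducible members, while the constitutive ones are made at all times. The heat-inducible genes here were Hsp90aa1, Hsph1, Hspa4l, Hspb1, Hspb8, Dnaja1, Dnajb1, Bag3, Chordc1 and Stip1, and the constitutive cytosolic ones were Hspa8, Hspa4, Hsp90ab1, Dnaja2, Dnajb6, Dnajc7, Cdc37, Cdc37l1, Fkbp4, Ptges3 and St13.

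Promoters of 36 of the 41 genes were found in RefSeq sequences of build GRCr8 and searched over the 250 bases before the gene's start for 2 neighbouring units, GAANNTTC or TTCNNGAA, and for 3 units in a row, GAANNTTCNNGAA or TTCNNGAANNTTC, each of which covers both strands, with the 3-unit motif holding a pair of overlapping 2-unit motifs. A 2-unit motif lay in 16 of the 36 promoters (44.4%) against 13.5% of all 33469 promoters of this length. By role it lay in 7 of the 10 heat-inducible promoters found, which lack Hsp90aa1 and include Ahsa1 (Bag3, Dnaja1, Dnajb1, Hspb1, Hspb8, Hsph1 and Stip1), in 4 of 9 constitutive cytosolic ones, in 3 of 5 mitochondrial ones, in 2 of 8 of TRiC/CCT and in 0 of 4 of prefoldin. A 3-unit motif lay in 4 promoters (11.1%), those of Hsph1, Hspa8, Hspd1 and Hspe1, against 0.663% of all promoters. The last 120 bases before the start are shown for Dnajb1, the single gene with the highest injury difference, which held 1 motif of 2 units, and for Hsph1, Hspa8 and Hspe1, to show the 3-unit motif in a heat-inducible, a constitutive and a mitochondrial gene. The capitals mark bases in a 2-unit motif. Hspe1 and Hspd1 lie head to head, so that their searched windows overlap and hold the same motifs.
Dnajb1, chr19:41431142-41431261, minus strand: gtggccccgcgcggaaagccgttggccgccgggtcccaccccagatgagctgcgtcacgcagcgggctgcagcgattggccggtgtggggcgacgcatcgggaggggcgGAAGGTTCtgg
Hsph1, chr12:10427248-10427367, plus strand: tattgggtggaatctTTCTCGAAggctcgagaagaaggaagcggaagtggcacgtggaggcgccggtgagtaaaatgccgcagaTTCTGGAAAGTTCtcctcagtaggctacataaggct
Hspa8, chr8:50080394-50080513, plus strand: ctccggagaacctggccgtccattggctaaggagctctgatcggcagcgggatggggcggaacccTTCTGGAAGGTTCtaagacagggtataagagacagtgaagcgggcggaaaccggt
Hspe1, chr9:64084207-64084326, plus strand: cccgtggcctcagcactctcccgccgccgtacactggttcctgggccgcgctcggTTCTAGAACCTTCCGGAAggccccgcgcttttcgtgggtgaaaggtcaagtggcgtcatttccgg

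The deposited values lie near 0 for each probe set, so they compare arrays for 1 gene and not levels between genes. Duplicates correlated between 0.161 and 0.903 over all probe sets, the lowest being the SCI-EtOH pair of 6 h, whose SDs over probe sets were 0.471 and 0.228. The RNA of cell type markers also differed between injured and sham cord. Of all genes, 35.1% were higher and 27.5% lower in A. In A, 13 of 13 neuron markers were lower and their mean lay between −2.12 and −0.35 in SCI-EtOH against 0.11 to 0.40 in S-EtOH, 8 of 8 astrocyte markers were lower, and 9 of 11 neutrophil and 5 of 5 erythrocyte markers were higher, with list means from −0.10 to 1.87 against −0.28 to 0.09 and from 0.02 to 1.67 against −1.46 to −0.04. The part of these cells in the chaperone differences was not tested, and in bulk tissue fewer cells of a type and less RNA per cell cannot be told apart.

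Hspa1a and Hspa1b encode the stress-induced cytosolic Hsp70 and share their probe set with the related Hspa1l. This probe set had a larger injury difference than any of the 38 single genes. Its lowest, median and highest log2 values were −0.36, −0.19 and 0.11 in the 14 S-EtOH arrays and 1.11, 1.98 and 2.50 in the 14 SCI-EtOH arrays. In the MP arms they were −0.50, −0.23 and 0.20 in S-MP and 0.81, 1.80 and 2.21 in SCI-MP. No injured array overlapped a sham array from 2 h on, while the SCI-EtOH rats of 0 h were at −0.49 and −0.33 and the S-EtOH rats at −0.25 and −0.22. The difference was 2.02 in A (SE 0.0699, adjusted p = 2.73e-21, limma over 27338 probe sets) and 1.88 in E (adjusted p = 4.48e-20), where 35.3% and 24.6% of all probe sets were higher. With the 0 h difference taken out, it was 2.20 in A (adjusted p = 2.49e-08). In B the difference was −0.16 over the 7 times (adjusted p = 0.0614, limma) and not called. By phase it was 0.11 at 2 to 6 h, −0.92 at 8 h, −0.30 at 12 h and −0.12 at 24 to 48 h. Only that of 8 h was called (adjusted p = 0.00187), beside 4.54% of all genes lower in B at 8 h. The duplicates of 8 h were at 2.36 and 2.46 in SCI-EtOH and at 1.34 and 1.64 in SCI-MP. This difference of 2 rats against 2 was not refitted without single arrays.

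The 10 measured heat-inducible genes did not move as one after injury. In A, 4 were higher, namely Dnajb1, Hspb8, Hspb1 and Bag3, and 6 were lower, namely Hspa4l, Stip1, Hsp90aa1, Chordc1, Dnaja1 and Hsph1, with a median log2 difference of −0.36. Over all 38 genes 12 were higher and 19 lower in A, beside 35.1% of all genes higher and 27.5% lower, so that the lower share was above that of all genes and the higher share was not. In E, the arms with MP, 4 heat-inducible genes were higher and 5 lower, and over all 38 genes 6 were higher and 12 lower, beside 21.7% and 33.3% of all genes. The median of all genes was 0.04 in A and 0.00 in E.

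**Figure D1:**
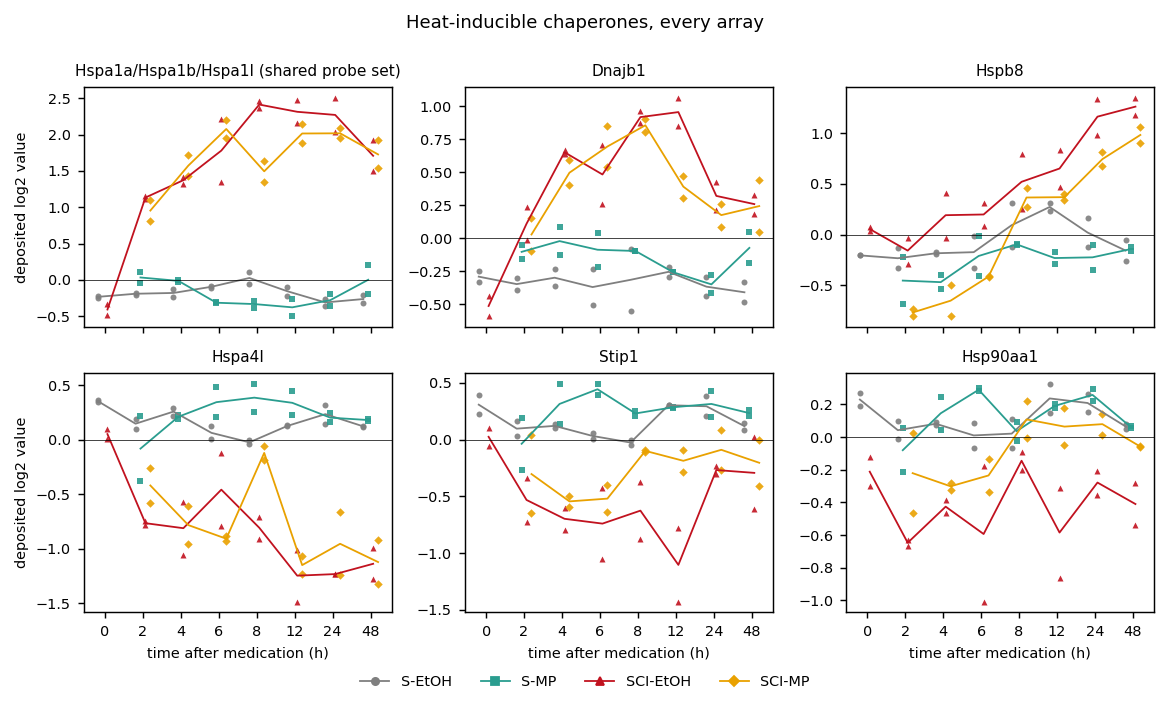
Deposited log2 value of the shared Hspa1 probe set and of 5 heat-inducible genes (y axis) at each time after medication (x axis, hours, not to scale) in every array of the 4 groups; lines join the means of the duplicates. The Hspa1 probe set and Dnajb1 rose in both injured arms, Hspb8 was highest at 24 and 48 h, and Hspa4l and Stip1 lay below the sham arms.

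Dnajb1, a J-domain partner of the inducible Hsp70, ranged over −0.55, −0.32 and −0.08 (lowest, median, highest of 14) in S-EtOH and over −0.02, 0.53 and 1.06 in SCI-EtOH, so that the groups did not overlap. In S-MP it ranged over −0.42, −0.14 and 0.08 and in SCI-MP over −0.10, 0.42 and 0.91, and 12 of 14 SCI-MP arrays lay above all S-MP arrays. The difference was 0.87 in A (SE 0.0568, adjusted p = 5.31e-15) and 0.55 in E (adjusted p = 2.21e-10). At 12 h its SCI-EtOH duplicates were at 1.06 and 0.85 and its SCI-MP duplicates at 0.47 and 0.31. Dnajb1 was the single gene still called higher in A with the 0 h difference taken out, at 1.09 (adjusted p = 6.03e-05).

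Hspb8 had its largest injury difference at 24 to 48 h, at 1.28 in A and 1.05 in E. This small heat shock protein, which acts with Bag3 in clearing misfolded proteins, had a SCI-EtOH median of 0.03 over 2 to 6 h (6 arrays, from −0.29 to 0.41) and reached 1.34, 0.99, 1.18 and 1.35 in the 4 arrays of 24 and 48 h. In SCI-MP it ran from −0.80 to −0.41 over 2 to 6 h and was at 0.68, 0.82, 0.90 and 1.06 at 24 and 48 h. At 2 to 6 h it was 0.27 higher in A (adjusted p = 0.0356, 0.18 without both SCI-EtOH arrays of 6 h) and at −0.23 in E (adjusted p = 0.0726), and at 12 h SCI-EtOH was at 0.83 and 0.47 against 0.23 and 0.32 in S-EtOH (adjusted p = 0.0994). No injured array of 24 to 48 h overlapped a sham array of those times, and over the 7 times Hspb8 was 0.60 higher in A (SE 0.067, adjusted p = 1.76e-09) and 0.35 in E (adjusted p = 3.14e-05). Hspb1, which binds unfolded proteins and actin, differed by 0.37 in A (adjusted p = 0.00615, 0.065 after quantile normalization) and 0.32 in E (adjusted p = 0.0177, 0.053 without duplicate 2 of S-MP at 24 h). Its arms overlapped, since S-EtOH ranged from −0.72 to 1.10 and SCI-EtOH from −0.14 to 0.81. Bag3 was 0.25 higher in A (adjusted p = 0.000243), whereas it was 0.05 in E (adjusted p = 0.501).

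Hspa4l, an Hsp110-type partner of Hsp70, fell most. Its values ranged over −0.04, 0.13 and 0.32 in S-EtOH and over −1.48, −0.95 and −0.12 in SCI-EtOH, and over −0.38, 0.23 and 0.52 in S-MP and −1.32, −0.90 and −0.06 in SCI-MP. All 14 SCI-EtOH arrays lay below all S-EtOH arrays, and 11 of 14 SCI-MP arrays lay below all S-MP arrays. The difference was −1.01 in E (adjusted p = 5.76e-14), and in A, where it was −1.06 (SE 0.0732, adjusted p = 2.13e-14), it stayed called with the 0 h difference taken out, at −0.75 (adjusted p = 0.0137). Stip1, which hands clients from Hsp70 to Hsp90, was at −0.74 in A (adjusted p = 1.1e-09) and at −0.53 in E (adjusted p = 8.14e-07), and 13 of 14 SCI-EtOH arrays lay below all of S-EtOH. Hsp90aa1, the inducible cytosolic Hsp90, lay wholly below S-EtOH in SCI-EtOH, with medians of 0.09 and −0.37, and was lower by 0.54 in A (adjusted p = 5.83e-09) and by 0.21 in E (adjusted p = 0.00524). With the 0 h difference taken out, Hsp90aa1 was at −0.09 in A and not called (adjusted p = 0.812, limma). Chordc1, an Hsp90 co-chaperone, was at −0.47 and −0.40, and Hsph1, the inducible Hsp110, at −0.26 and −0.29, all called. Dnaja1, an Hsp70 partner of the DnaJA type, was −0.47 in A (adjusted p = 8.6e-07) and 0.22 in E (adjusted p = 0.0104, 0.08 after quantile normalization).

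Beside 35.1% of all genes higher and 27.5% lower, 0 of the 11 constitutive cytosolic genes were higher and 7 lower in A, with a median of −0.20. They were Cdc37l1, a Cdc37-like Hsp90 partner (−0.56, SE 0.0801, adjusted p = 2.8e-07), Hspa4, an Hsp110-type exchange factor (−0.29, adjusted p = 2.5e-05), the main constitutive Hsp70 Hspa8 (−0.27, adjusted p = 2.67e-06), Ptges3, known as p23 (−0.26, adjusted p = 0.00661), Fkbp4, an immunophilin of steroid receptor complexes (−0.25, adjusted p = 0.000962), Hsp90ab1, the constitutive Hsp90 (−0.20, adjusted p = 3.88e-06), and St13, the Hsp70-interacting protein (−0.12, adjusted p = 0.0350, 0.12 without duplicate 1 of SCI-EtOH at 6 h). Dnaja2, Dnajb6, Dnajc7 and Cdc37 were not called in A, with differences from −0.06 to 0.10. In E, 0 were higher and 5 lower, beside 21.7% and 33.3% of all genes. The 5 were Fkbp4 at −0.36, Hspa8 at −0.23, Hsp90ab1 at −0.21, Cdc37 at −0.18 and Dnajc7 at −0.15 (adjusted p = 0.0306, 0.084 without duplicate 1 of S-MP at 4 h). Hspa8, Hsp90ab1 and Fkbp4 were therefore lower in both comparisons, which share no array. All 8 probe sets of Hspa8 were lower in A, beside 25.3% of all probe sets. The probe sets of St13 were at −0.16, −0.17 and −0.04 in A, the last not called (adjusted p = 0.553, limma).

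Cdc37l1 ranged over −0.17, 0.14 and 0.48 in S-EtOH, −0.43, 0.19 and 0.73 in S-MP, −1.17, −0.38 and −0.02 in SCI-EtOH and −0.55, 0.36 and 1.14 in SCI-MP. The SCI-EtOH arrays were the low ones, 10 of 14 of them below all of S-EtOH. Hspa4 ranged over −0.11, 0.03 and 0.23 in S-EtOH, −0.24, 0.08 and 0.37 in S-MP, −0.63, −0.25 and 0.24 in SCI-EtOH and −0.45, 0.09 and 0.46 in SCI-MP. Its SCI-EtOH arrays were again the low ones, with 11 of 14 below all of S-EtOH and an overlap through the highest.

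The 5 mitochondrial genes split, with 2 higher and 3 lower in A and 0 higher and 1 lower in E. Of all genes, 35.1% were higher and 27.5% lower in A, and 21.7% and 33.3% in E. Hspd1, the Hsp60 chamber, ranged over −0.12, 0.05 and 0.29 in S-EtOH, −0.40, 0.11 and 0.28 in S-MP, −0.96, −0.51 and 0.35 in SCI-EtOH and −0.43, −0.05 and 0.68 in SCI-MP. Hspa9, the mitochondrial Hsp70, ranged over −0.10, 0.09 and 0.44, then −0.15, 0.15 and 0.59, then −0.84, −0.39 and 0.64, and then −0.40, 0.38 and 0.85 in the same order of groups. For both genes most SCI-EtOH arrays were low, 12 and 11 of 14 below all of S-EtOH, and for each 1 array was above all of S-EtOH, of 48 h for Hspd1 and of 8 h for Hspa9. Hspd1 was at −0.55 (SE 0.0761, adjusted p = 1.71e-07) and Hspa9 at −0.45 (SE 0.0844, adjusted p = 2.75e-05) in A, whereas both were within −0.07 and 0.09 in E and not called. The 2 probe sets of Hspd1 were at −0.63 and −0.46 in A, both called. At 24 to 48 h they differed, at −0.61 and 0.01 in A and at 0.77 and 0.21 in B. The second was not called there (adjusted p of 0.966 and 0.427, limma). Trap1, the mitochondrial Hsp90, was lower in A (−0.15, adjusted p = 0.0152) and in E (−0.35, adjusted p = 9.7e-07). Grpel1, the exchange factor of Hspa9, was higher in A (0.33, adjusted p = 4.96e-05), as was Hspe1 (0.17, adjusted p = 0.0289, 0.08 without duplicate 1 of SCI-EtOH at 48 h), and neither was called in E.

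TRiC/CCT had 4 subunits higher and 3 lower in A, with a median of 0.17, and 1 higher and 1 lower in E. Of all genes, 35.1% were higher and 27.5% lower in A, and 21.7% and 33.3% in E. Neither count of E was above its share of all genes. Higher in A were Cct7 (0.52, SE 0.0612, adjusted p = 6.22e-09), Cct3 (0.31, adjusted p = 3.47e-06), Cct4 (0.27, adjusted p = 0.000355) and Cct5 (0.24, adjusted p = 0.000661), and lower were Tcp1 (−0.46, SE 0.0685, adjusted p = 6.74e-07), Cct2 (−0.25, adjusted p = 0.000537) and Cct8 (−0.24, adjusted p = 0.00301). In E, Cct6a was at 0.21 (adjusted p = 0.00374) and Cct2 at −0.18 (adjusted p = 0.00921). Tcp1 ranged over −0.08, 0.17 and 0.35 in S-EtOH, −0.49, −0.13 and 0.11 in S-MP, −0.97, −0.58 and 0.53 in SCI-EtOH and −0.91, −0.10 and 0.53 in SCI-MP. Its injured arms spread over both sides of the sham arms, with 9 SCI-EtOH arrays below and 3 above all of S-EtOH, and the subunits are described by time further on.

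Of the 3 measured prefoldin subunits, Pfdn5 was higher in A (0.35, SE 0.0773, adjusted p = 0.000255) and in E (0.53, adjusted p = 4.25e-07). Its values ranged over −0.43, −0.20 and −0.02 in S-EtOH, −0.35, 0.01 and 0.55 in S-MP, −0.28, 0.13 and 0.64 in SCI-EtOH and 0.19, 0.55 and 0.83 in SCI-MP, so that 11 of 14 SCI-EtOH arrays lay above all of S-EtOH. Pfdn2 was −0.12 in A (adjusted p = 0.45) and 0.06 in E (adjusted p = 0.714), and Pfdn1 was −0.02 and 0.13, neither called. Hsf1, the factor that binds heat shock elements, ranged over −0.10, 0.01 and 0.16 in S-EtOH, −0.35, −0.13 and 0.21 in S-MP, −0.02, 0.14 and 0.31 in SCI-EtOH and −0.45, −0.08 and 0.07 in SCI-MP. It was 0.15 higher in A (adjusted p = 0.00484, 0.057 after quantile normalization), while it was −0.01 in E (adjusted p = 0.877). The difference between E and A equals B minus D, which was −0.16 for Hsf1 and not called. It was not called for Bag3 or Hspe1 either. A call in A without one in E therefore does not by itself show that the injury difference differed with MP. The members called in B minus D are named with the MP results.

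**Figure D2:**
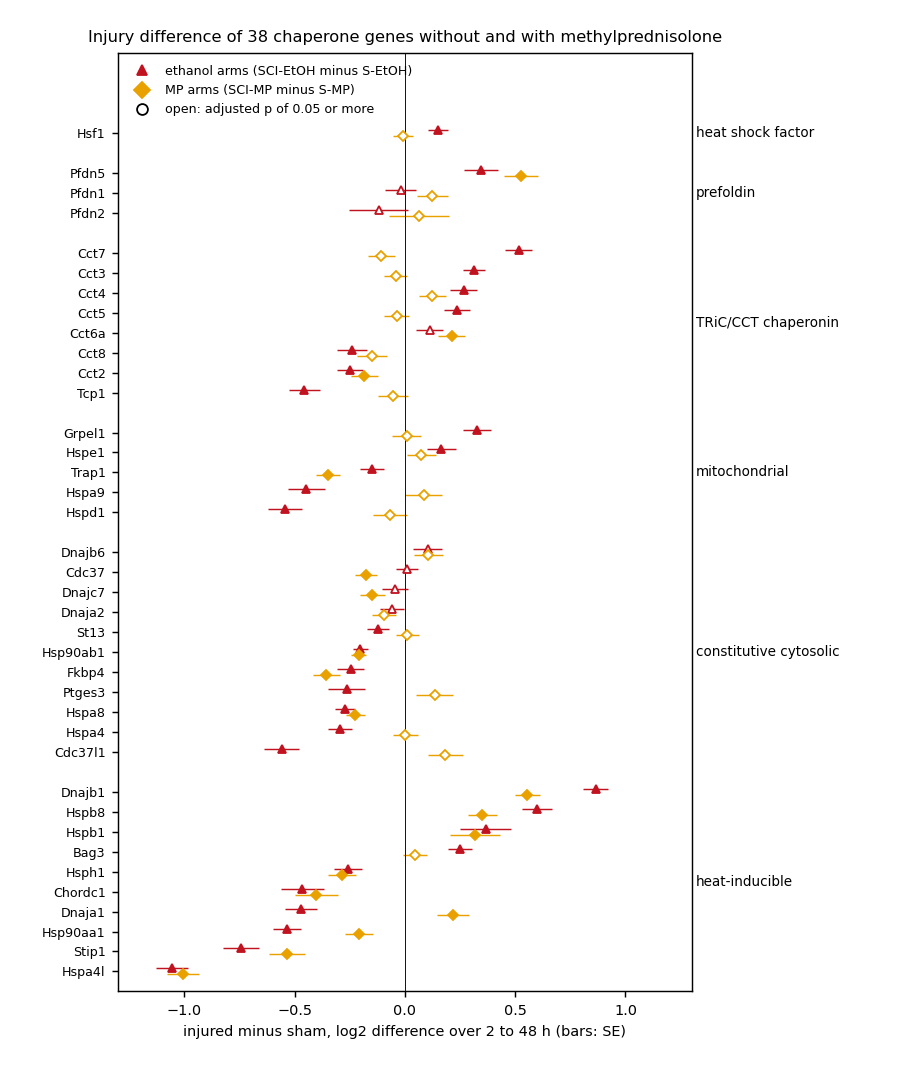
Log2 difference between injured and sham arms over 2 to 48 h (x axis, bars are SEs) for each of the 38 measured genes (y axis, by role), without MP (A, red triangles) and with MP (E, yellow diamonds); open symbols have an adjusted p of 0.05 or more. Dnajb1, Hspb8 and Hspb1 were higher and Hspa4l and Stip1 lower in both, while Cdc37l1, Hspa9 and Hspd1 were called lower in A and not called in E.

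Some members had differences between SCI-EtOH and S-EtOH at 0 h, though without a call in the main fit. Beside 0.0419% of all genes, 0 of the 38 genes were called there (limma). At an unadjusted p under 0.05 were 8 of the 38, beside 1683 of all 14324 genes. The SEs of these differences of 2 rats against 2 ran from 0.0894 to 0.359 in the main fit. The lack of a call depended on the fit. A fit of 0 h alone called 9 of the 38, array weights 10 and quantile normalization 3. The shares of all genes in these other fits were not counted. Dnaja1 was at −0.79 and −0.72 in SCI-EtOH and at 0.11 and −0.07 in S-EtOH, a difference of −0.78, and Hspa9 was at −0.61 and −0.77 against −0.04 and −0.05, a difference of −0.65. Hspd1 differed by −0.54, and Cct7 by 0.57 with 0.29 and 0.60 against 0.01 and −0.27. No duplicates of these genes overlapped between the groups at 0 h. These genes were among those with the largest differences at 0 h, and the share of all genes without such an overlap was not counted. With each gene's 0 h difference taken out, 1 of the 38 was higher and 1 lower in A, Dnajb1 and Hspa4l. The remaining calls were lost, at SEs of 0.0956 to 0.384 in place of 0.0338 to 0.136, and the values behind them went different ways. Pfdn5 at 0.51, Hsf1 at 0.26 and Trap1 at −0.36 were farther from 0 than before, and Hspa8 at −0.24, Hsp90ab1 at −0.19, Hsph1 at −0.21, Cct2 at −0.22 and Hspb1 at 0.32 stayed near their earlier values. Hsp90aa1 at −0.09 was nearer 0 than before. Hspd1 at −0.01, Hspa4 at −0.02 and Tcp1 at −0.01 were left near 0, and Dnaja1 at 0.30 and Hspa9 at 0.20 turned their sign. A lost call therefore does not show that a gene's difference was present at 0 h. The SCI-EtOH rats of 0 h had already been injured, so 0 h was not a value from before the injury. An early part of the injury difference cannot be told apart there from an offset between the arms. No rat given MP was sampled at 0 h. For B, the 0 h difference of SCI-EtOH from S-EtOH was taken out of the SCI-EtOH side alone, which assumes that SCI-MP rats started without it, and this left 0 higher and 0 lower.

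**Figure D3:**
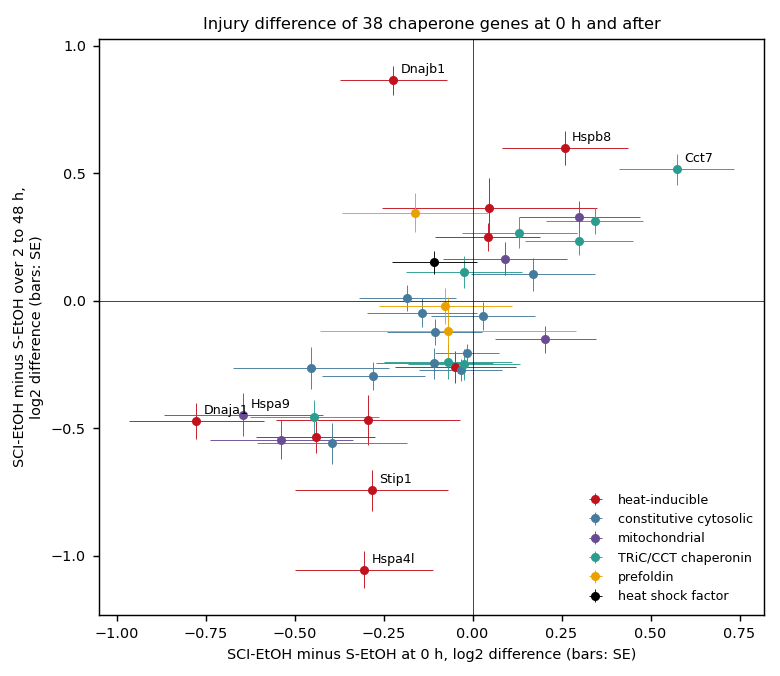
Log2 difference between SCI-EtOH and S-EtOH over 2 to 48 h (y axis) against the same difference at 0 h (x axis) for each of the 38 measured genes, coloured by role, with SEs as bars; both axes use different arrays of the same arms. Dnaja1, Hspa9 and Cct7 had like differences at both, while Dnajb1 at 0.87 and Hspa4l at −1.06 lay far from their 0 h values of −0.22 and −0.30.

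The clearest change over time was that of TRiC/CCT. All 8 subunits varied over the 7 times in SCI-EtOH and all 8 in SCI-MP, and 0 in either sham arm (moderated F test in limma). Over all 38 genes, 26 varied in SCI-EtOH and 29 in SCI-MP, 1 in S-EtOH (Hspb1) and 1 in S-MP (Cdc37l1), beside 57% of all genes in SCI-EtOH, 42.2% in SCI-MP and, for the sham arms, 1.33% with ethanol and 1.21% with MP. At 2 to 6 h, 1 subunit was higher (Cct7 at 0.33, or 0.12 with an adjusted p of 0.47 without both SCI-EtOH arrays of 6 h) and 3 lower in A (Tcp1 at −0.75, Cct2 at −0.44 and Cct8 at −0.43), with a median of −0.04, and 0 higher and 6 lower in E, with a median of −0.40. Cct3 had a median of −0.16 (from −0.59 to 0.07, 6 arrays) in SCI-EtOH at 2 to 6 h, and its 4 arrays of 24 and 48 h were at 0.94, 0.95, 0.82 and 0.85. In SCI-MP it ran from −0.67 to −0.38 and then stood at 0.65, 0.47, 0.44 and 0.48, whereas S-EtOH at 24 and 48 h was at −0.15, 0.07, −0.12 and −0.11. The late arrays of both injured arms lay above the early ones and above the late sham arrays.

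Tcp1, the subunit also called CCT alpha, ran from −0.85 to −0.52 in SCI-EtOH at 2 to 6 h and was at 0.38, 0.53, 0.30 and 0.46 at 24 and 48 h. In SCI-MP it ran from −0.91 to −0.48 and was then at 0.53, 0.20, 0.19 and 0.52. Its late arrays lay above its early arrays in both injured arms, but overlapped S-EtOH, which was at 0.22, 0.32, 0.22 and 0.21.

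Comparing the injury difference of 24 to 48 h with that of 2 to 6 h removes any constant offset between arms. By this measure all 8 subunits rose in A, from 0.62 (Cct7, adjusted p = 0.0013) to 0.99 (Cct3, SE 0.125, adjusted p = 2.82e-07), and all 8 rose in E, from 0.51 (Cct2, adjusted p = 0.00839) to 0.89 (Tcp1, adjusted p = 0.000164). Their medians were 0.85 and 0.77, against 0.00 and 0.03 for all genes. Over the 38 genes 14 rose and 1 fell in A, beside 16.7% and 14.8% of all genes, and 19 rose and 0 fell in E, beside 15.9% and 8.87%. In E, 27 of the 38 had an unadjusted p under 0.05 in either direction (limma), beside 4962 of all 14324 genes. Leaving out any 1 of the 60 arrays kept all 8 subunits called in both, while quantile normalization of the arrays kept all 8 above 0 but called 5 in A and 4 in E. The comparison was chosen after the values were seen. Neuron markers moved the other way by the same measure, with 9 of 13 lower in A and 8 of 13 in E. Astrocyte markers (7 of 8 lower in A, 5 of 8 in E) and oligodendrocyte markers (8 of 9 and 7 of 9) did so too. Of 11 neutrophil markers 7 were higher in A and 3 in E. The part of cell composition was not tested.

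**Figure D4:**
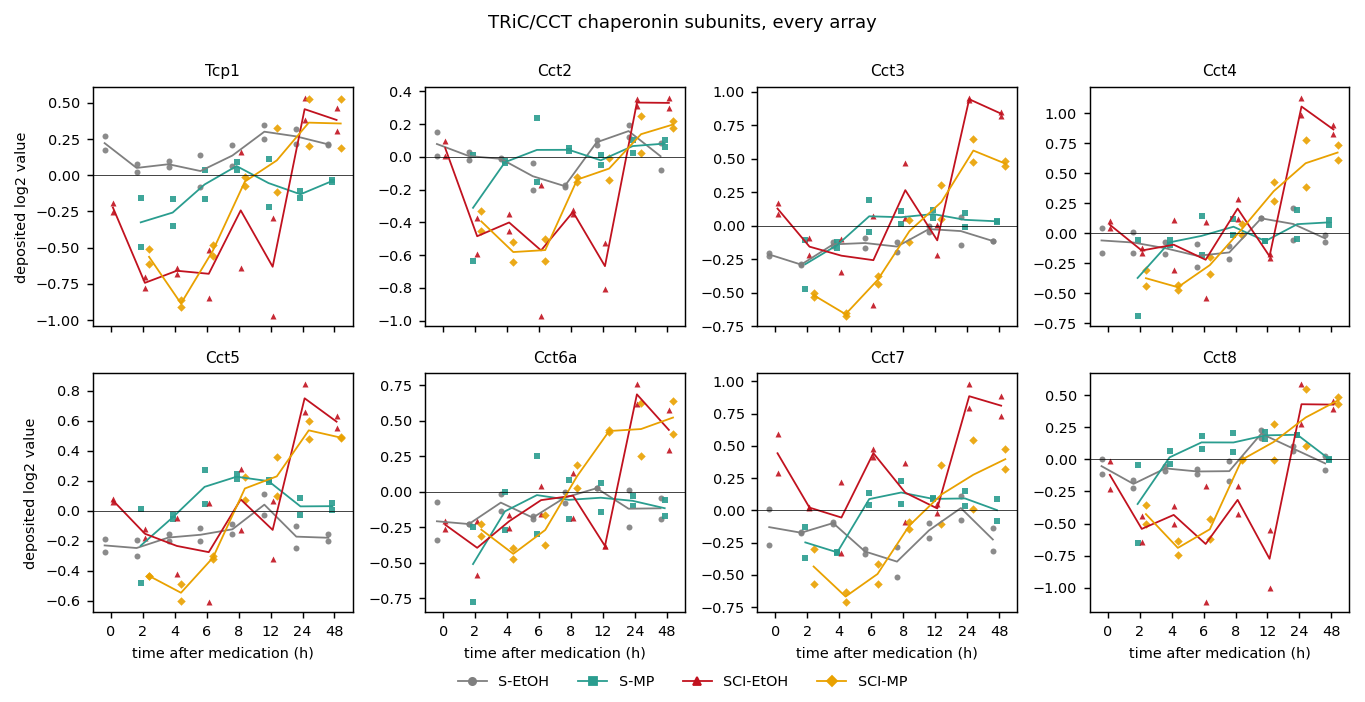
Deposited log2 value of the 8 TRiC/CCT subunits (y axis) at each time after medication (x axis, hours, not to scale) in every array of the 4 groups; lines join the means of the duplicates. In both injured arms each subunit was higher at 24 and 48 h than at 2 to 6 h, and in SCI-EtOH Cct8 and Tcp1 were low again at 12 h.

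Other genes rose with them by this measure. Hspb8 rose by 1.01 in A and 1.28 in E, Cdc37 by 0.51 and 0.64, Bag3 by 0.37 and 0.57, Ptges3 by 0.67 and 0.58, and Hspa9 by 0.52 and 0.89. Of these, Hspa9 and Bag3 in A and Ptges3 in E lost the call without 1 array, with adjusted p up to 0.11, 0.082 and 0.088. After quantile normalization none of the 5 was called in A, with Hspb8 at 0.38 (adjusted p = 0.23), Cdc37 at 0.34 (0.081), Bag3 at 0.46 (0.086), Ptges3 at 0.51 (0.14) and Hspa9 at 0.51 (0.084), and Ptges3 was not called in E (adjusted p = 0.14). Hspa4l changed by −0.53 in A (adjusted p = 0.0196), but by −0.02 after quantile normalization (adjusted p = 0.96) and by −0.37 without both SCI-EtOH arrays of 6 h (adjusted p = 0.12), and it lost the call without duplicate 1 of SCI-EtOH at 48 h (adjusted p = 0.065). Hsf1 was at 0.00 and −0.02.

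By phase, more members were lower than higher in injured cord at 2 to 6 h in A and in E, and at 12 h in A. At 2 to 6 h, 4 were higher and 18 lower in A, beside 18.4% and 16.7% of all genes, and 2 higher and 21 lower in E, beside 8.23% and 28% of all genes. The 21 were 6 of 8 subunits of TRiC/CCT, 7 of 11 constitutive, 3 of 5 mitochondrial and 5 of 10 heat-inducible genes, with Hspa4l lowest at −0.86. At 8 h, 4 were higher and 2 lower in A, beside 11.8% and 12.6%, with Dnajb1 at 1.23, Pfdn5 at 0.85, Cct7 at 0.53, Cct3 at 0.42, Stip1 at −0.60 and Hspa4l at −0.78 (5 and 1 after quantile normalization, 4 and 1 with array medians at 0). Cct7, Cct3 and Stip1 lost the call there without 1 array, with adjusted p up to 0.29, 0.38 and 0.37. At 12 h, 1 was higher and 18 lower in A, beside 14.3% and 17.3%. The 1 higher was Dnajb1 at 1.21, and the lowest were Stip1 at −1.41, Hspa4l at −1.37, Chordc1 at −1.05, Hspd1 at −0.99 and Cct8 at −0.97. The SCI-EtOH duplicates of 12 h stood apart in most of these, as Stip1 was at −0.78 and −1.43, Cct8 at −0.55 and −1.002 and Hspa9 at −0.24 and −0.82, with both below the S-EtOH duplicates. In SCI-MP the means over TRiC/CCT and over the constitutive genes were not low at 12 h in the same way. The mean over the TRiC/CCT subunits was −0.24 and −0.48 in the SCI-EtOH duplicates, 0.06 and 0.31 in SCI-MP and 0.02 and 0.07 in S-MP. That over the constitutive genes was −0.18 and −0.41, then 0.08 and 0.14, and then 0.07 and 0.14. Single members were low in SCI-MP too, as Hspa4l was at −1.07 and −1.23, Fkbp4 at −0.51 and −0.60 and Trap1 at −0.37 and −0.32. Without all arrays of 12 h, Ptges3, St13, Trap1 and Cct8 lost their calls in A over the remaining times, with adjusted p of 0.12, 0.25, 0.13 and 0.17. At 24 to 48 h, 13 were higher and 6 lower in A, beside 25.4% and 22.2%, and 17 higher and 3 lower in E, beside 18.3% and 22.6%. After quantile normalization 13 were higher and 6 lower in E. In both, 6 of 8 TRiC/CCT subunits were higher, with list medians of 0.76 and 0.46, of which Cct8 in A and Cct7 in E lost the call without 1 array (adjusted p up to 0.063 and 0.36). Without duplicate 2 of S-MP at 24 h the 20 calls of E became 13.

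In injured cord, MP went with higher values of 12 members and lower values of 10 (B), beside 10.4% of all genes higher and 31.7% lower (13 and 7 with array medians at 0, 11 and 6 after quantile normalization). Among the cell markers, 7 of 11 neutrophil markers were lower in B and 1 higher, and 2 of 13 neuron markers were higher and 2 lower, and their part was not tested. Pfdn2, a beta-type prefoldin subunit, changed most. It ranged over −0.55, −0.17 and 0.09 in S-EtOH, −0.37, 0.37 and 1.23 in S-MP, −0.72, −0.43 and 0.87 in SCI-EtOH and −0.26, 0.68 and 0.97 in SCI-MP. Both MP arms were high and both ethanol arms low, with an overlap through single arrays, and 13 of 14 S-MP arrays were above all of S-EtOH. The difference was 0.92 in B (SE 0.136, adjusted p = 1.91e-06) and 0.74 in D (adjusted p = 0.000505), and B minus D was 0.18 (SE 0.192, adjusted p = 0.506). Pfdn2 differed by −0.07 at 0 h, and with the 0 h difference taken out it was at 0.85 in B (SE 0.384) and not called (adjusted p = 0.669). Pfdn5 was 0.36 higher in B (adjusted p = 0.0003) and at 0.18 in D (adjusted p = 0.13).

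**Figure D5:**
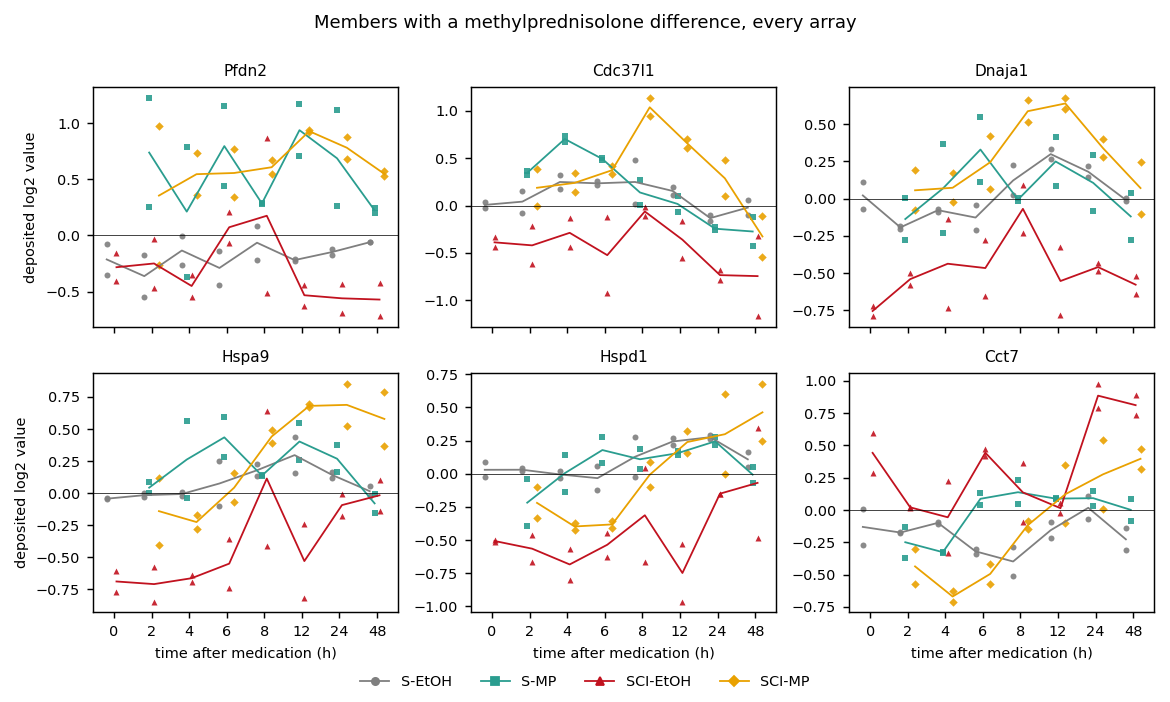
Deposited log2 value of 6 members with a difference between SCI-MP and SCI-EtOH (y axis) at each time after medication (x axis, hours, not to scale) in every array of the 4 groups; lines join the means of the duplicates. Pfdn2 was high in both MP arms, whereas Cdc37l1, Dnaja1, Hspa9 and Hspd1 were low in SCI-EtOH, also at 0 h.

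Of the heat-inducible genes, 4 were higher in B, Dnaja1 (0.73, SE 0.0718, adjusted p = 1.78e-09), Hsp90aa1 (0.36, adjusted p = 2.73e-05), Stip1 (0.33, adjusted p = 0.00144) and Hsph1 (0.20, adjusted p = 0.011), and 3 were lower, Hspb8 (−0.46, SE 0.067, adjusted p = 1.72e-06), Hspb1 (−0.42, adjusted p = 0.00377, 0.051 after quantile normalization and 0.055 with array weights) and Bag3 (−0.32, adjusted p = 2.84e-05). Dnaja1 ranged over −0.21, −0.01 and 0.33 in S-EtOH, −0.28, 0.02 and 0.55 in S-MP, −0.78, −0.49 and 0.09 in SCI-EtOH and −0.10, 0.26 and 0.67 in SCI-MP. Its SCI-EtOH arrays were low, and 10 of 14 SCI-MP arrays lay above all of them. Hspb8 ranged from −0.80 to 1.06 in SCI-MP and from −0.29 to 1.35 in SCI-EtOH, with medians of 0.30 and 0.44. Its arms overlapped, and the gap was widest at 2 to 6 h, at −0.69.

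Among constitutive genes, 4 were higher in B, Cdc37l1 (0.80, SE 0.0801, adjusted p = 2.45e-09), Hspa4 (0.33, adjusted p = 1.39e-05), Ptges3 (0.21) and Hspa8 (0.16), and 2 lower, Fkbp4 (−0.15) and Hsp90ab1 (−0.08). Of all genes, 10.4% were higher and 31.7% lower in B. Ptges3, Fkbp4 and Hsp90ab1 lost the call without 1 array, with adjusted p up to 0.11, 0.14 and 0.11, and Hspa8 and Hsph1 lost it without all arrays of 12 h, each with an adjusted p of 0.11. Hspa8 probe sets at 0.08 (adjusted p = 0.221, limma) and 0.09 (adjusted p = 0.0828) were not called in B, whereas its other probe sets were. The mitochondrial genes had 2 higher, Hspa9 (0.64, SE 0.0844, adjusted p = 2.8e-07) and Hspd1 (0.44, adjusted p = 2.39e-05), and 2 lower, Grpel1 (−0.30, adjusted p = 0.000313) and Hspe1 (−0.16, adjusted p = 0.0466, 0.12 without duplicate 1 of SCI-EtOH at 48 h). For TRiC/CCT 0 were higher and 2 lower, Cct7 (−0.45, SE 0.0612, adjusted p = 4.56e-07) and Cct3 (−0.25, adjusted p = 0.000277). Cct7 ranged over −0.51, −0.17 and 0.11 in S-EtOH, −0.37, 0.04 and 0.23 in S-MP, −0.33, 0.29 and 0.98 in SCI-EtOH and −0.71, −0.12 and 0.54 in SCI-MP, with SCI-EtOH the high group and an overlap of all groups. Hsf1 was lower, at −0.27 (adjusted p = 1.5e-05), with medians of 0.14 in SCI-EtOH and −0.08 in SCI-MP. With the 0 h difference taken out, on the assumption stated above, none of these calls in B remained. Dnaja1, Hspa9 and Hspd1 were then at −0.05, 0.00 and −0.10, while Hsf1 at −0.38 and Fkbp4 at −0.26 were farther from 0 and Hspb1 at −0.37, Bag3 at −0.27 and Cdc37l1 at 0.40 kept their sign, at SEs of 0.129 to 0.323 for these 5.

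In sham cord MP differences were fewer, with 6 members higher and 3 lower in D, beside 5.63% and 4.22% of all genes (11 and 9 after quantile normalization). The 6 were Pfdn2, Cdc37 (0.24, adjusted p = 0.00261), Hsph1 (0.23, adjusted p = 0.0196), Dnajb1 (0.20), Cct5 (0.20) and Dnajc7 (0.18), and the 3 were Hspb1 (−0.37), Tcp1 (−0.27, adjusted p = 0.00996) and Hspb8 (−0.21). Dnajb1, Cct5, Dnajc7, Hspb1 and Hspb8 each lost the call without 1 array, with adjusted p up to 0.059, 0.063, 0.11, 0.083 and 0.10. None of the 5 mitochondrial genes was called in D, where the smallest adjusted p was that of Trap1 (0.12, adjusted p = 0.15, limma). At an unadjusted p under 0.05 was 1 of the 5, beside 3361 of all 14324 genes.

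The MP difference itself differed between injured and sham cord for 13 members, with B minus D above 0 for 8 and below 0 for 5, beside 5.45% and 20.2% of all genes. Those above were Cdc37l1, Dnaja1, Hspa9, Hspd1, Tcp1, Ptges3, Hsp90aa1 and Hspa4, and those below Cct7, Cct3, Grpel1, Dnajb1 and Cct5. As B minus D equals E minus A, the injury difference of these genes differed between the MP and the ethanol arms. Grpel1 lost this call after quantile normalization (adjusted p = 0.094), and Hspa4 and Ptges3 without all arrays of 12 h (adjusted p of 0.072 and 0.17). The part of the 0 h difference of SCI-EtOH in B minus D was not tested. For Hspb8, Pfdn2, Hspb1 and Hsph1, which were called in both B and D, the interaction was not called, with B minus D at −0.25 (adjusted p = 0.0505), 0.18, −0.05 and −0.03 (SEs 0.0947, 0.192, 0.162 and 0.0909).

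By phase, MP in injured cord had 6 members higher and 9 lower at 2 to 6 h, beside 3.71% and 22.9% of all genes (8 and 7 after quantile normalization), and 3 higher at 8 h (Cdc37l1 at 1.10, Hspa4l at 0.69 and Dnaja1 at 0.66) and 0 lower, beside 2.11% and 4.54%. At 8 h, 5 of the 38 were at an unadjusted p under 0.05 in either direction (limma), beside 2962 of all 14324 genes. Hspa4l and Dnaja1 lost the call at 8 h without 1 array, with adjusted p up to 0.19 and 0.24. At 12 h, 18 were higher and 1, Dnajb1 at −0.56, lower, beside 7% and 9.18%. The highest there were Pfdn2 at 1.46, Hspa9 at 1.21, Dnaja1 at 1.19, Cdc37l1 at 1.02, Hspd1 at 0.99, Stip1 at 0.92 and Cct8 at 0.91, and without duplicate 2 of SCI-EtOH at 12 h the 19 calls became 10, and Pfdn2 and Stip1 had adjusted p of 0.06 and 0.16. Dnajb1 lost the call without duplicate 2 of SCI-MP at 12 h (adjusted p = 0.12). After quantile normalization 2 of the 19 remained called, Hspa4 and Cct8, and the values were smaller, with Hspa9 at 0.78, Dnaja1 at 0.77, Cdc37l1 at 0.66, Pfdn2 at 0.92, Stip1 at 0.59 and Dnajb1 at −0.33. At 24 to 48 h, 8 were higher, Pfdn2 at 1.23 the highest, and 4 lower, with Cct7 at −0.51, Cct3 at −0.38, Hsf1 at −0.34 and Cct4 at −0.33, beside 3.27% and 10.6%. After quantile normalization 0 were called there, and leaving out duplicate 2 of SCI-MP at 48 h left 7 of the 12 calls.

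Of 78 other genes of the chaperone pathway, 65 were measured, and 11 were higher and 31 lower in A (35.1% and 27.5% of all genes), 8 and 35 in E (21.7% and 33.3%), 12 and 17 in B (10.4% and 31.7%), and 6 and 2 in D (5.63% and 4.22%). In A the largest rises were those of Cryab, a small heat shock protein (0.92, adjusted p = 2.52e-12), and of Ruvbl2 (0.45) and Ruvbl1 (0.44), AAA ATPases that work with the Hsp90 partner complex R2TP. The largest falls were those of Hspa12a, a distant Hsp70 relative (−1.47, adjusted p = 2.18e-17), Dnajc6, the J protein auxilin that uncoats clathrin vesicles (−1.18), and Sgtb, a small glutamine-rich co-chaperone (−0.73). In B the largest rises were those of Fkbp5, an immunophilin of steroid receptor complexes and a known glucocorticoid target (0.84, adjusted p = 1.59e-06, with 0.62 in D, adjusted p = 0.00102), Dnajc21 (0.55) and Dnajc2 (0.48), and the largest falls those of Stub1, the ubiquitin ligase CHIP (−0.37), Sgta (−0.32) and Bag6 (−0.32).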

How the data were processed

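RNA of 60 rats was hybridised to 60 Affymetrix arrays (Rat Gene 1.0 ST), and scanner files were not used here. The authors summarised probes by RMA, normalised per chip and per gene in GeneSpring and deposited log2 values; what each probe set was centred on, and the genome build, are not given in the sources used here. The deposited log2 values carry no brightness over background, so no filter on dim probe sets was possible, and the number of arrays limits the precision. Fold sizes therefore rest on centred log2 values alone.

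From these values, probe sets with a linear CV of duplicates under 50% in at least 16 of 30 pairs were kept (27338 of 27342). Of all probe sets, 15097 carried 1 symbol, 323 several and 11922 none, and 15067 were updated by gene ID. Probe sets of a gene were averaged (Hspa8 8, St13 3, Hspd1 2), since values without an absolute level allow no choice by brightness. limma 3.58.1 in R 4.3.3 fitted 30 group and time means with 30 residual degrees of freedom, with eBayes moderation. Contrasts were adjusted by Benjamini-Hochberg over 14324 genes (27338 probe sets for the Hspa1 probe set) and called at 0.05. The methods name an analysis of variance with Tukey's test per time point, which is given as an alternative because 2 rats per group leave it few degrees of freedom. The duplicates are single rats, so p-values measure the spread between these rats. The members, role lists and pathway list were chosen with earlier results of these data known. Named genes are, per role and comparison over the 7 times, up to 6 called genes with the largest difference in each direction, or the one with the smallest adjusted p where none was called; values by array are given for the 2 largest per role in A and in B. Hspa1b, Hsf1 and Pfdn2 are named throughout. Scripts were tested on simulated data. Alternatives were quantile normalization, array medians set to 0, no noise filter, array weights, the duplicate number as a block, genes with 1 probe set, a fit per phase, the plain analysis of variance with Tukey's test, the 0 h difference taken out, and leaving out each array. Promoter sequences are those of RefSeq, build GRCr8.

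The rats were treated as unpaired in the main fit. Over 43 pairs of same-numbered arrays of a time point, deviations from the group mean correlated with a median of 0.00417 (−0.574 to 0.431), with 11 over 0.1. Duplicate numbers given at random would also leave a median near 0, so this check cannot exclude a pairing or a shared batch.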

Additional observations from a re-analysis of the deposited data

Results flagged for a closer look

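In 13 of the 38 measured chaperone genes the MP difference differed between injured and sham cord (B minus D over the 7 times, limma, all past an adjusted p of 0.05). Above 0 were 8, beside 5.45% of all genes, and below 0 were 5, beside 20.2%. The share below 0 was thus not above that of all genes. The MP difference was higher in injured cord for Cdc37l1 at 0.742, Dnaja1 at 0.688, Hspa9 at 0.532, Hspd1 at 0.477, Tcp1 at 0.401, Ptges3 at 0.398, Hsp90aa1 at 0.326 and Hspa4 at 0.296. It was lower for Cct7 at −0.623, Cct3 at −0.355, Grpel1 at −0.319, Dnajb1 at −0.312 and Cct5 at −0.273. SCI-EtOH differed from S-EtOH by −0.40, −0.78, −0.65 and −0.54 at 0 h in Cdc37l1, Dnaja1, Hspa9 and Hspd1 and by 0.57 in Cct7. The SCI-EtOH rats of 0 h were already injured. The part of this 0 h difference in the interaction was not tested, as no MP rat was taken at 0 h. Groups of 2 rats were too small to test for single arrays that stand apart.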

How the results depend on the processing

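Taking out the 0 h difference moved most: 1 member was then higher and 1 lower in A, and 0 and 0 in B, where it assumes that SCI-MP rats started without that difference; its SEs were also larger. Called members that changed sign were, in A, Dnaja1 at 0.305, Ptges3 at 0.19, Hspa9 at 0.198, Cct3 at −0.0294, Cct5 at −0.0637 and Cct7 at −0.0572, and in B, Hsp90aa1 at −0.081, Dnaja1 at −0.0456, Ptges3 at −0.243, Hspa9 at −0.00089, Hspd1 at −0.1, Cct3 at 0.0966 and Cct7 at 0.119. With quantile normalization 6 were lower in B, 11 higher and 9 lower in D, and called were 1 in B at 8 h, 2 in B at 12 h, 0 in B at 24 to 48 h, 3 in A at 0 h, 5 and 11 in the change of A and E from 2 to 6 h to 24 to 48 h, and 6 in S-EtOH and 7 in S-MP over time. With array weights 6 were lower in B, 11 higher and 7 lower in D, and called were 7 in B at 2 to 6 h, 6 in B at 24 to 48 h, 10 in A at 0 h, and 10 in S-EtOH and 16 in SCI-EtOH over time. A fit of 0 h alone called 9 in A. The plain analysis with Tukey's test called 1 in A and 1 in B at 8 h, and 7 and 6 at 12 h. Without all arrays of 12 h, chosen after seeing the data, 1 was lower in D, 8 were lower in B minus D, and 0 varied in S-EtOH. The shares of all genes called under these settings were not counted, and the cause of these shifts was not tested.

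Leaving out 1 array gave 1 to 4 lower in D (1 without duplicate 1 of S-EtOH at 4 h), 5 to 10 lower in B minus D (10 without duplicate 2 of SCI-EtOH at 8 h), and as called 3 to 7 in A (3 without duplicate 1 of S-EtOH) and 1 to 4 in B (1 without duplicate 1 of SCI-MP) at 8 h, 10 to 20 in B at 12 h, 7 to 14 in B and 13 to 22 in E at 24 to 48 h, 0 to 1 in A at 0 h, and 0 to 1 in S-EtOH and 0 to 2 in S-MP over time. In A over the 7 times it left 11 to 13 higher and 18 to 19 lower.

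The duplicate number as a replicate block left the counts of A over the 7 times at 12 higher and 19 lower and moved no count by over 1.5 times. Without the SCI-EtOH pair of 6 h, no count of A, B or B minus D moved by over 1.5 times.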
